A study of Homo sapiens with 8 samples.

Results

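Translation initiation factors are the proteins that bring the ribosome, the initiator methionyl-tRNA and the messenger RNA together at the start codon. The set described here holds the genes named EIF1, EIF2B, EIF2S, EIF3, EIF4, EIF5 or EIF6, leaving out EIF1AY, that had at least 10 reads in 2 or more of 8 RNA-seq libraries. That rule kept 45 of the 49 genes with such names, out of 23228 genes counted and 13996 genes that met the same read rule. Within this family, members were chosen by gene name and read number, and the rule holds no difference between groups. All 45 had 10 reads or more in each of the 8 libraries.

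The libraries are labelled as U87 MG, an established glioblastoma line, and form 4 groups of 2. The groups are ERβ5 (knockout cells with the ERβ5 isoform of estrogen receptor beta put back), ERβ1 (knockout cells with the ERβ1 isoform put back), ERβ-KO (the receptor gene ESR2 knocked out with CRISPR/Cas9) and control (U87 cells). The ERβ5 and ERβ1 cells therefore also carry the knockout. All were grown in DMEM with serum, and the labels name no hormone or drug. Neither a clone number for the knockout nor separate cultures within a group are named in the labels. The p-values below therefore rest on the spread of these libraries, which may be technical.

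The data did not match the label in 2 respects, so each direction below is between libraries as labelled. Of the 10 glial or mesenchymal glioma markers checked, GFAP stayed at or below 0.136 CPM (reads per 1000000 gene reads, with TMM scaling), VIM lay between 1.82 and 12.4 CPM, CHI3L1 and NES reached at most 0.122 and 4.34 CPM, and OLIG2 and S100B had 0 reads. The others of the 10 were higher, with SOX2 at 11.4 to 30.2 CPM, CD44 at 47.3 to 61.9 CPM, LGALS1 at 57 to 104 CPM and FN1 at 52.7 to 175 CPM. All 10 luminal epithelial markers checked lay at 106 CPM or more in every library, with KRT8 between 2060 and 4450 CPM and EPCAM between 516 and 632 CPM. ESR2 itself had 6 to 25 reads a library, at 0.201 and 0.367 CPM in ERβ5, 0.225 and 0.372 CPM in ERβ1, 0.528 and 0.692 CPM in ERβ-KO, and 0.608 and 0.546 CPM in control. It was thus no higher in the libraries with an isoform put back, and a read count cannot show a small edit or an altered protein. Gene reads numbered 26760897 to 48076414 per library. In bulk RNA, fewer cells of a type and less RNA per cell cannot be told apart.

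As background, initiation begins when eIF2 with GTP carries the initiator tRNA to the small ribosomal subunit, where eIF1, eIF1A, eIF3 and eIF5 gather. The cap-binding protein eIF4E, the scaffold eIF4G and the helicase eIF4A with eIF4B recruit the messenger RNA, and eIF5B joins the large subunit. The pathway is regulated by phosphorylation of eIF2, which blocks its exchange factor eIF2B, and by the 4E-BP proteins, which mTOR signalling releases from eIF4E. In mammals, many mRNAs of ribosomal proteins and translation factors begin with a C followed by an unbroken run of pyrimidines, called a TOP element, through which mTOR and LARP1 regulate their translation and stability.

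Some of the 45 genes had such a start in the RefSeq annotation (GRCh38.p14), and these are shown because they were all lower in ERβ5 than in control (values below). A window around the annotated start was found for 37 of the 45 genes. Taking C at the first base and at least 4 further C or T bases after it, 7 of the 37 had a pyrimidine start, against 4.04% of 27305 windows of that table read at the first start listed for each gene. Those windows are not limited to genes with reads here. Among the genes tested below, 573 had such a start and 9995 had a window with another start. Another start is listed for 9 of the 37 genes, and none of the 9 had a pyrimidine start at any of its listed starts. Each line gives 20 bases before the annotated start and the first 10 bases of the transcript, with the pyrimidine run in capitals.

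EIF4B (chr12:53006436-53006465, plus strand): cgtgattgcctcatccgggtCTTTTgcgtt

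EIF4A2 (chr3:186783557-186783586, plus strand): gggtggttgggcgccgctgtCTTTTCagtc

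EIF3F (chr11:7987317-7987346, plus strand): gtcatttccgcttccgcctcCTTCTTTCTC

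EIF2S3 (chrX:24054936-24054965, plus strand): cagccggggtgatttccttcCTCTTTTggc

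EIF3D (chr22:36529157-36529186, minus strand): ccgctgcgcgcgcatgtttcCTCTTTTCCT

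EIF3K (chr19:38619168-38619197, plus strand): gtcgtttccgtttccaccacCTCTTCCTgt

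EIF3M (chr11:32583811-32583840, plus strand): gcgtcgcgcggcccagttccCTTTTCCggt

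For contrast, 3 genes without such a start follow, EIF1, which was also lower in ERβ5, and EIF5 and EIF5B, which were higher in at least 1 comparison.

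EIF1 (chr17:41688865-41688894, plus strand): aacacaggcaccgcccctctgccccagtca

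EIF5 (chr14:103334217-103334246, plus strand): gcgcggcggcggcgttgttcagtcagagcg

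EIF5B (chr2:99337369-99337398, plus strand): cgcttgcgcactgagaactcacaccatatg

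Reads of the 45 genes together made up a smaller part of the ERβ5 libraries than of any other. Their reads summed to 8677 and 7871 CPM (here without TMM scaling) in ERβ5, 9442 and 9520 in ERβ1, 9312 and 9389 in ERβ-KO, and 10370 and 10290 in control. The ERβ5 libraries thus lay below all others, the control libraries above all others, and ERβ1 and ERβ-KO between them.

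Each gene was then tested by quasi-likelihood in edgeR, its p adjusted over the 13915 genes tested (Benjamini-Hochberg), and called at an adjusted p under 0.05. In ERβ5 against control, 14 of the 45 genes were called, 1 higher and 13 lower, which is 31.1% against 13.2% of all genes tested (6.85% higher and 6.31% lower). The median log2 change was -0.11 for the 45 genes and 0.01 for all genes. In ERβ5 against ERβ1, 7 genes were called, all lower, or 15.6% against 4.66% (3.49% higher and 1.18% lower), with medians of -0.12 and -0.01. In ERβ-KO against control, 14 were called, 3 higher and 11 lower, or 31.1% against 17.5% (8.98% higher and 8.52% lower), with medians of -0.14 and 0.01.

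In ERβ5 against ERβ-KO, 17 of the 45 were called, 4 higher and 13 lower, or 37.8% against 28.2% of all genes (14.7% higher and 13.5% lower), with medians of -0.19 and 0.01. In ERβ1 against ERβ-KO, 9 were called, 5 higher and 4 lower, or 20% against 24.9% (12.4% higher and 12.5% lower), a share below that of all genes, with medians of 0.01 and 0.00. In ERβ1 against control, only EIF1 was called, or 2.22% against 4.06% (1.36% higher and 2.7% lower), with 9 of the 45 at an unadjusted p under 0.05 and 2 called by DESeq2. The medians there were -0.05 and 0.01. The comparisons share libraries, so their counts are not independent of each other. Over the 6 comparisons 19 genes were called in none, 6 in 1, 8 in 2, 8 in 3 and 4 in 4, the last being EIF3F, EIF3L, EIF4A2 and EIF4B.

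The counts depended on single libraries, in some comparisons also on libraries of groups not compared. A group without 1 of its libraries has 1 left, and why the counts changed was not tested. For ERβ5 against control they were 7 and 9 without control library 1 or 2, while over all genes the calls numbered 591 and 746, against 1831 with all libraries. For ERβ5 against ERβ1 they were 0 and 2 without ERβ1 library 1 or 2, 3 without ERβ5 library 2, and 4 without either control library. All genes gave 131 and 172 without ERβ1 library 1 or 2 and 301 without ERβ5 library 2, against 649 with all libraries. For ERβ-KO against control they were 2 and 0 without control library 1 or 2, and 0 and 7 without ERβ-KO library 1 or 2. The counts over all genes were 508, 247, 426 and 1497 in these fits, against 2434 with all libraries. For ERβ5 against ERβ-KO they were 8 and 2 without ERβ-KO library 1 or 2, and 4 without ERβ5 library 2, with 1875, 1742 and 1689 over all genes, against 3922. For ERβ1 against ERβ-KO they were 3 and 2 without ERβ-KO library 1 or 2, 1 without ERβ1 library 1, and 5 without either control library, with 1857, 2035, 1208, 2544 and 2539 over all genes, against 3466. The number of calls over all genes thus fell in each of these fits too. For ERβ1 against control, EIF1 was no longer called without either library of either group, and 4 genes were called without either ERβ5 library. The calls that held in all fits tried, including those without 1 library, were EIF1, EIF3E, EIF3F, EIF3H, EIF3L, EIF4A2 and EIF4B in ERβ5 against control, EIF5 in ERβ5 against ERβ-KO and EIF4E1B in ERβ1 against ERβ-KO. Each of the other calls below was lost in at least 1 fit, most often one without 1 library of the groups compared.

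**Figure D1:**
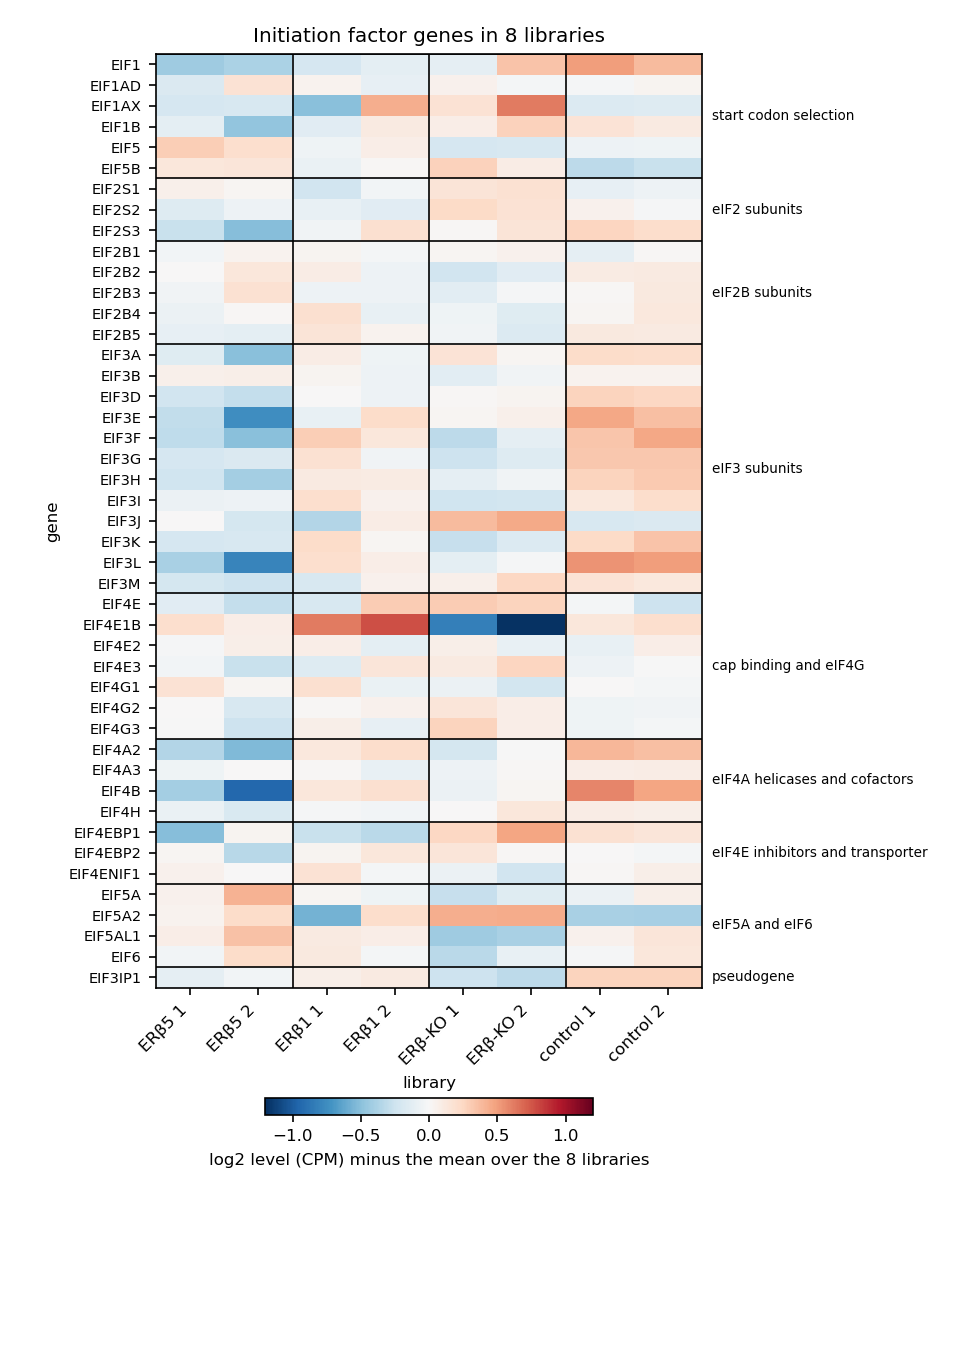
Log2 level (CPM) of each of the 45 initiation factor genes in each of the 8 libraries, minus the gene's mean over the 8 libraries; genes run down the page by role, libraries across it from ERβ5 to control. Most eIF3 subunits, EIF4A2 and EIF4B are blue in the ERβ5 columns and red in the control columns.

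The trend of level with transcript GC content set the ERβ-KO libraries apart from the 6 others. It goes with that group, so a technical origin and a change in the cells cannot be told apart. Removing it may remove either. Across 13244 genes, the correlation of log2 level (minus the gene's mean) with the GC content of the transcript was 0.118 and 0.339 in the ERβ5 libraries, 0.351 and -0.137 in ERβ1, -0.56 and -0.461 in ERβ-KO, and 0.127 and 0.194 in control. With the GC and length trend of each library removed, ERβ5 against control had 4 genes higher and 14 lower, and all of the 14 calls made before were among them, while the calls over all genes numbered 3044, against 1831 without the correction. ERβ5 against ERβ1 had 1 higher and 9 lower, with all 7 earlier calls kept and 1164 calls over all genes, against 649. ERβ-KO against control had 2 higher and 14 lower, with 10 of 14 kept and 1644 calls over all genes, against 2434. ERβ5 against ERβ-KO had 5 higher and 7 lower, with 7 of 17 kept and 2510 calls over all genes, against 3922. ERβ1 against ERβ-KO had 9 higher and 2 lower, with 6 of 9 kept and 3333 over all genes, against 3466. In ERβ1 against control 3 genes were called, EIF1 among them, with 1367 over all genes, against 565.

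The eIF3 complex, which bridges the small subunit and the mRNA, was the largest role group here, so call counts are given beside shares. In ERβ5 against control 9 of its 12 subunits measured were lower and none was higher, with a median log2 change of -0.52 over the 12. That is 75% called, against 13.2% of all genes. EIF3L, a subunit with a PCI domain (GRCh37 chr22:38244875-38285414), stood at 180 and 136 CPM in ERβ5, 272 and 249 CPM in ERβ1, 218 and 233 CPM in ERβ-KO, and 342 and 334 CPM in control. All ERβ5 values lay below all others and all control values above, without overlap. EIF3L was lower by -1.10 ± 0.13 (log2 change ± SE, n = 2 libraries a group, edgeR adjusted p = 0.000264) in ERβ5 against control, a ratio of 0.468. It was also lower in ERβ5 against ERβ1 (-0.72 ± 0.13, edgeR adjusted p = 0.00712), in ERβ5 against ERβ-KO (-0.51 ± 0.13, edgeR adjusted p = 0.0135) and in ERβ-KO against control (-0.58 ± 0.12, edgeR adjusted p = 0.0118).

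EIF3E, another PCI subunit on chromosome 8, stood at 427 and 313 CPM in ERβ5, 491 and 609 CPM in ERβ1, 533 and 545 CPM in ERβ-KO, and 720 and 672 CPM in control. The ERβ5 libraries were the lowest and differed from each other by more than those of control or ERβ-KO did. The log2 change of EIF3E in ERβ5 was -0.91 ± 0.15 against control (edgeR adjusted p = 0.00195), -0.57 ± 0.15 against ERβ1 (edgeR adjusted p = 0.0464) and -0.54 ± 0.15 against ERβ-KO (edgeR adjusted p = 0.0188), whereas in ERβ-KO against control it was not called. With the GC and length trend removed the change against ERβ-KO was -0.17 and not called, and the call against ERβ1 was lost with only the groups compared and with a replicate block. EIF3F and EIF3H form the pair of MPN-domain subunits. EIF3F had 43.1 and 37.6 CPM in ERβ5, 65.3 and 58.3 CPM in ERβ1, 42.7 and 49.4 CPM in ERβ-KO, and 66.9 and 73.1 CPM in control. ERβ1 and control were therefore high for EIF3F, and ERβ5 and ERβ-KO low, with overlap between ERβ5 and ERβ-KO but none between ERβ1 and control. EIF3F was lower in ERβ5 against control (-0.79 ± 0.12, edgeR adjusted p = 0.00139), in ERβ5 against ERβ1 (-0.61 ± 0.12, edgeR adjusted p = 0.0132) and in ERβ-KO against control (-0.605 ± 0.12, edgeR adjusted p = 0.00805), and higher in ERβ1 against ERβ-KO (0.425 ± 0.12, edgeR adjusted p = 0.0242).

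EIF3H stood at 501 and 444 CPM in ERβ5, 634 and 633 CPM in ERβ1, 548 and 573 CPM in ERβ-KO, and 712 and 733 CPM in control, the 4 groups not overlapping. EIF3H was lower in ERβ5 against control by -0.61 ± 0.10 (edgeR adjusted p = 0.00189) and in ERβ5 against ERβ1 by -0.42 ± 0.10 (edgeR adjusted p = 0.0287), and lower in ERβ-KO against control by -0.37 ± 0.10 (edgeR adjusted p = 0.0263). EIF3K, the smallest PCI subunit, had 152 and 153 CPM in ERβ5, 204 and 178 CPM in ERβ1, 144 and 156 CPM in ERβ-KO, and 205 and 222 CPM in control. ERβ5 and ERβ-KO overlapped at the low end and ERβ1 lay below control. The log2 change of EIF3K was -0.49 ± 0.10 in ERβ5 against control (edgeR adjusted p = 0.00868), -0.52 ± 0.10 in ERβ-KO against control (edgeR adjusted p = 0.00825) and 0.35 ± 0.10 in ERβ1 against ERβ-KO (edgeR adjusted p = 0.0282), the last not called with the GC and length trend removed.

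The other eIF3 subunits called lower in ERβ5 against control were the scaffold subunit EIF3A (-0.52), EIF3D (-0.52), which can itself bind the cap of some mRNAs, EIF3G (-0.51) and EIF3M (-0.38), as log2 changes. EIF3B, the subunit that anchors EIF3G and EIF3I, had 476 and 478 CPM in ERβ5 and 469 and 468 CPM in control, a log2 change of 0.03 ± 0.09 (edgeR adjusted p = 0.887). EIF3I, with a log2 change of -0.24 ± 0.09 (edgeR adjusted p = 0.122), was not called in ERβ5 against control but was called in ERβ-KO against control (-0.40) and in ERβ1 against ERβ-KO (0.36, with 244 and 221 CPM in ERβ1 and 180 and 183 CPM in ERβ-KO). Without control library 1 or 2 the count of eIF3 subunits lower in ERβ5 against control was 4 and 5 of 12, with EIF3E, EIF3F, EIF3H and EIF3L called in each of these fits.

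In ERβ-KO against control, 6 of the 12 eIF3 subunits were lower (EIF3F, EIF3G, EIF3H, EIF3I, EIF3K and EIF3L, with log2 changes of -0.37 to -0.605) and EIF3J was higher. That is 58.3% called, against 17.5% of all genes. EIF3J, the loosely bound subunit that sits near the mRNA channel of the small subunit, had 66.6 and 57.4 CPM in ERβ5, 52 and 70.5 CPM in ERβ1, 86.6 and 91 CPM in ERβ-KO, and 58 and 58.8 CPM in control. Only the ERβ-KO libraries stood apart, above the 6 others. EIF3J was higher in ERβ-KO against control (0.605 ± 0.14, edgeR adjusted p = 0.0144) and lower than in ERβ-KO in both ERβ5 (-0.52 ± 0.14, edgeR adjusted p = 0.0182) and ERβ1 (-0.53 ± 0.14, edgeR adjusted p = 0.0166). With the GC and length trend removed, the change of EIF3J in ERβ5 against ERβ-KO was -0.15 and not called. The eIF3 counts in ERβ-KO against control were 2 and 0 lower without control library 1 or 2, and 0 and 4 lower without ERβ-KO library 1 or 2. Against ERβ-KO, 6 subunits were lower in ERβ5 (EIF3A, EIF3D, EIF3E, EIF3J, EIF3L and EIF3M). With the GC and length trend removed 3 were lower, EIF3D and EIF3L from these 6 and EIF3G, which had not been called. The 6 calls were lost without ERβ-KO library 2 and without ERβ5 library 2. In ERβ1, 3 subunits were higher and 1 lower than in ERβ-KO, and 0 were called without ERβ-KO library 1 or without ERβ1 library 1. In ERβ5 against ERβ1, 4 subunits were lower (EIF3E, EIF3F, EIF3H and EIF3L), but 0 and 2 without ERβ1 library 1 or 2, 1 without ERβ5 library 2 and 2 without either control library. In ERβ1 against control edgeR and DESeq2 each called 0 of the 12, with 4 at an unadjusted p under 0.05 in edgeR and 1 called with the GC and length trend removed. With all libraries, 50% of the 12 were called in ERβ5 against ERβ-KO, against 28.2% of all genes. In ERβ1 against ERβ-KO the share was 33.3%, near the 24.9% of all genes, and in ERβ5 against ERβ1 it was 33.3% against 4.66%.

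**Figure D2:**
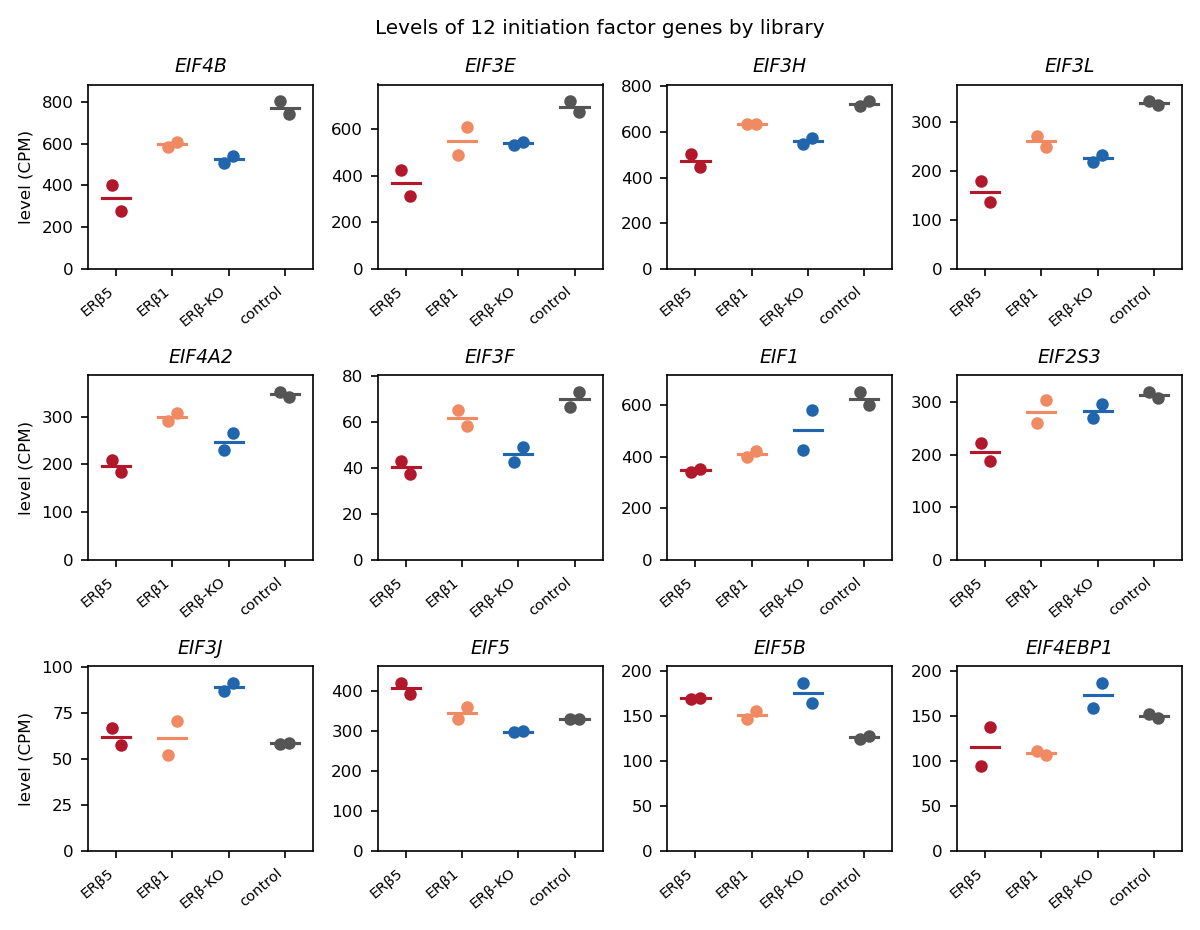
Level (CPM, axis from 0) of 12 initiation factor genes in each of the 8 libraries, with a bar at the mean of the 2 libraries of a group. EIF4B, EIF3E, EIF3H, EIF3L, EIF4A2 and EIF2S3 are lowest in both ERβ5 libraries, EIF3J is highest in both ERβ-KO libraries and EIF5 is highest in both ERβ5 libraries.

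Of the eIF4A helicases and their cofactors, EIF4B and EIF4A2 were lower in ERβ5 than in each other group. EIF4B, which stimulates the eIF4A helicase (GRCh37 chr12:53400066-53435999), stood at 401 and 278 CPM in ERβ5, 584 and 609 CPM in ERβ1, 507 and 542 CPM in ERβ-KO, and 802 and 742 CPM in control. The groups did not overlap, and the ERβ5 libraries lay far apart. EIF4B had the largest fall of the 45 genes in ERβ5 against control, -1.19 ± 0.15 on the log2 scale (edgeR adjusted p = 0.000432), a ratio of 0.44. It was also lower in ERβ5 against ERβ1 (-0.81 ± 0.15, edgeR adjusted p = 0.00777), in ERβ5 against ERβ-KO (-0.63 ± 0.14, edgeR adjusted p = 0.0108) and in ERβ-KO against control (-0.56 ± 0.14, edgeR adjusted p = 0.0242).

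EIF4A2, 1 of the paralogous RNA helicases (GRCh37 chr3:186500994-186507686), had 209 and 184 CPM in ERβ5, 291 and 308 CPM in ERβ1, 230 and 265 CPM in ERβ-KO, and 351 and 342 CPM in control. Again the order was ERβ5, ERβ-KO, ERβ1 and control, without overlap. EIF4A2 was lower in ERβ5 against control (-0.82 ± 0.11, edgeR adjusted p = 0.000599), in ERβ5 against ERβ1 (-0.61 ± 0.11, edgeR adjusted p = 0.00712), in ERβ5 against ERβ-KO (-0.33 ± 0.11, edgeR adjusted p = 0.0376) and in ERβ-KO against control (-0.485 ± 0.11, edgeR adjusted p = 0.0129). With the GC and length trend removed the ERβ5 against ERβ-KO value of EIF4A2 lost its call. EIF4A3, the paralog in the exon junction complex, and EIF4H, a relative of EIF4B, were called in none of the 6 comparisons.

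Part of these genes cannot be counted from uniquely placed reads alone. Of all 50-base windows of the canonical transcript (the read length here), 61.1% of EIF4B, 14.2% of EIF4A2, 16.8% of EIF3E, 12.2% of EIF3L and 11% of EIF3F occur elsewhere in GRCh37. Reads without a single place made up 35.5 and 34.7% of all counted entries in ERβ5, 37.7 and 37.8% in ERβ1, 35.4 and 36.4% in ERβ-KO, and 39.7 and 39.9% in control. That share was lower in ERβ5 than in control, as were these genes, and its part in the results was not tested. Genes with 0% of windows found elsewhere differed among themselves in ERβ5 against control. EIF3D, EIF3G and EIF3K were lower, as was EIF3H with 1.51%. EIF5B was higher, and EIF2S1, EIF3B, EIF4G1 and EIF6, also at 0%, were not called.

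Among the factors of start codon selection, EIF1 was lower in ERβ5 than in control and in ERβ-KO, and EIF5 was higher in ERβ5 than in ERβ-KO. EIF1, which guards the fidelity of AUG recognition (GRCh37 chr17:39845137-39848920), had 341 and 352 CPM in ERβ5, 399 and 421 CPM in ERβ1, 424 and 579 CPM in ERβ-KO, and 648 and 597 CPM in control. ERβ5 was lowest and control highest, without overlap, while the ERβ-KO libraries lay far apart. EIF1 was lower in ERβ5 against control (-0.85 ± 0.13, edgeR adjusted p = 0.00177), in ERβ1 against control (-0.60 ± 0.13, edgeR adjusted p = 0.0271) and in ERβ5 against ERβ-KO (-0.53 ± 0.13, edgeR adjusted p = 0.0141). The last of these was -0.29 and not called without ERβ-KO library 2.

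EIF5, the GTPase-activating protein of eIF2 (GRCh37 chr14:103799881-103811362), had 419 and 393 CPM in ERβ5, 330 and 361 CPM in ERβ1, 297 and 299 CPM in ERβ-KO, and 329 and 330 CPM in control. Both ERβ5 libraries lay above the 6 others. EIF5 was higher in ERβ5 against ERβ-KO (0.445 ± 0.09, edgeR adjusted p = 0.00747), a call that held in every fit tried, including each without 1 library. Its log2 change was 0.30 in ERβ5 against control (edgeR adjusted p = 0.0552) and 0.23 in ERβ5 against ERβ1 (edgeR adjusted p = 0.214), neither called. EIF5B, the GTPase of subunit joining, had 169 and 170 CPM in ERβ5, 146 and 155 CPM in ERβ1, 186 and 164 CPM in ERβ-KO, and 124 and 128 CPM in control. Control was lowest for EIF5B, and ERβ5 lay inside the range of ERβ-KO. EIF5B was higher in ERβ5 against control (0.43 ± 0.10, edgeR adjusted p = 0.0132) and in ERβ-KO against control (0.47 ± 0.10, edgeR adjusted p = 0.00947), but the call in ERβ-KO was lost with the GC and length trend removed. EIF1B was lower in ERβ5 against ERβ-KO (-0.46), but not with the GC and length trend removed, and EIF1AX was not called in any comparison. EIF1AD, listed with this group without evidence here for a role in start codon selection, was not called either.

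The eIF2 subunits did not move together. EIF2S3, the gamma subunit that binds GTP and the tRNA (GRCh37 chrX:24073063-24096927), had 221 and 187 CPM in ERβ5, 259 and 304 CPM in ERβ1, 270 and 296 CPM in ERβ-KO, and 318 and 308 CPM in control. Both ERβ5 libraries lay below the 6 others. EIF2S3 was lower in ERβ5 against control (-0.62 ± 0.12, edgeR adjusted p = 0.00476), ERβ1 (-0.47 ± 0.12, edgeR adjusted p = 0.0415) and ERβ-KO (-0.47 ± 0.12, edgeR adjusted p = 0.0132). The call against ERβ-KO was lost with the GC and length trend removed (-0.21), and that against ERβ1 with only the groups compared and with a replicate block. EIF2S2, the beta subunit, had 83 and 88.4 CPM in ERβ5, 86.9 and 83.7 CPM in ERβ1, 108 and 104 CPM in ERβ-KO, and 95.9 and 91.2 CPM in control. The ERβ-KO libraries were highest, and EIF2S2 was lower than in ERβ-KO by -0.31 in both ERβ5 (edgeR adjusted p = 0.0325) and ERβ1 (edgeR adjusted p = 0.0317), neither with the GC and length trend removed.

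EIF2S1, the alpha subunit that carries the regulatory phosphorylation site, had 155 and 151 CPM in ERβ5, 127 and 145 CPM in ERβ1, 165 and 168 CPM in ERβ-KO, and 139 and 142 CPM in control. With no trend removed it was called once, lower in ERβ1 against ERβ-KO (-0.29 ± 0.10, edgeR adjusted p = 0.048), and with the GC and length trend removed that value was 0.00. In ERβ5 against ERβ-KO EIF2S1 was not called (-0.12), but it was called higher with that trend removed. The 5 genes of eIF2B, the exchange factor of eIF2, gave 0 calls in all 6 comparisons by edgeR and by DESeq2. At an unadjusted p under 0.05 edgeR had 1 of the 5 in ERβ-KO against control, 1 in ERβ5 against ERβ-KO and 0 in the others. Their log2 changes lay between -0.28 and 0.25 over the 6 comparisons.

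**Figure D3:**
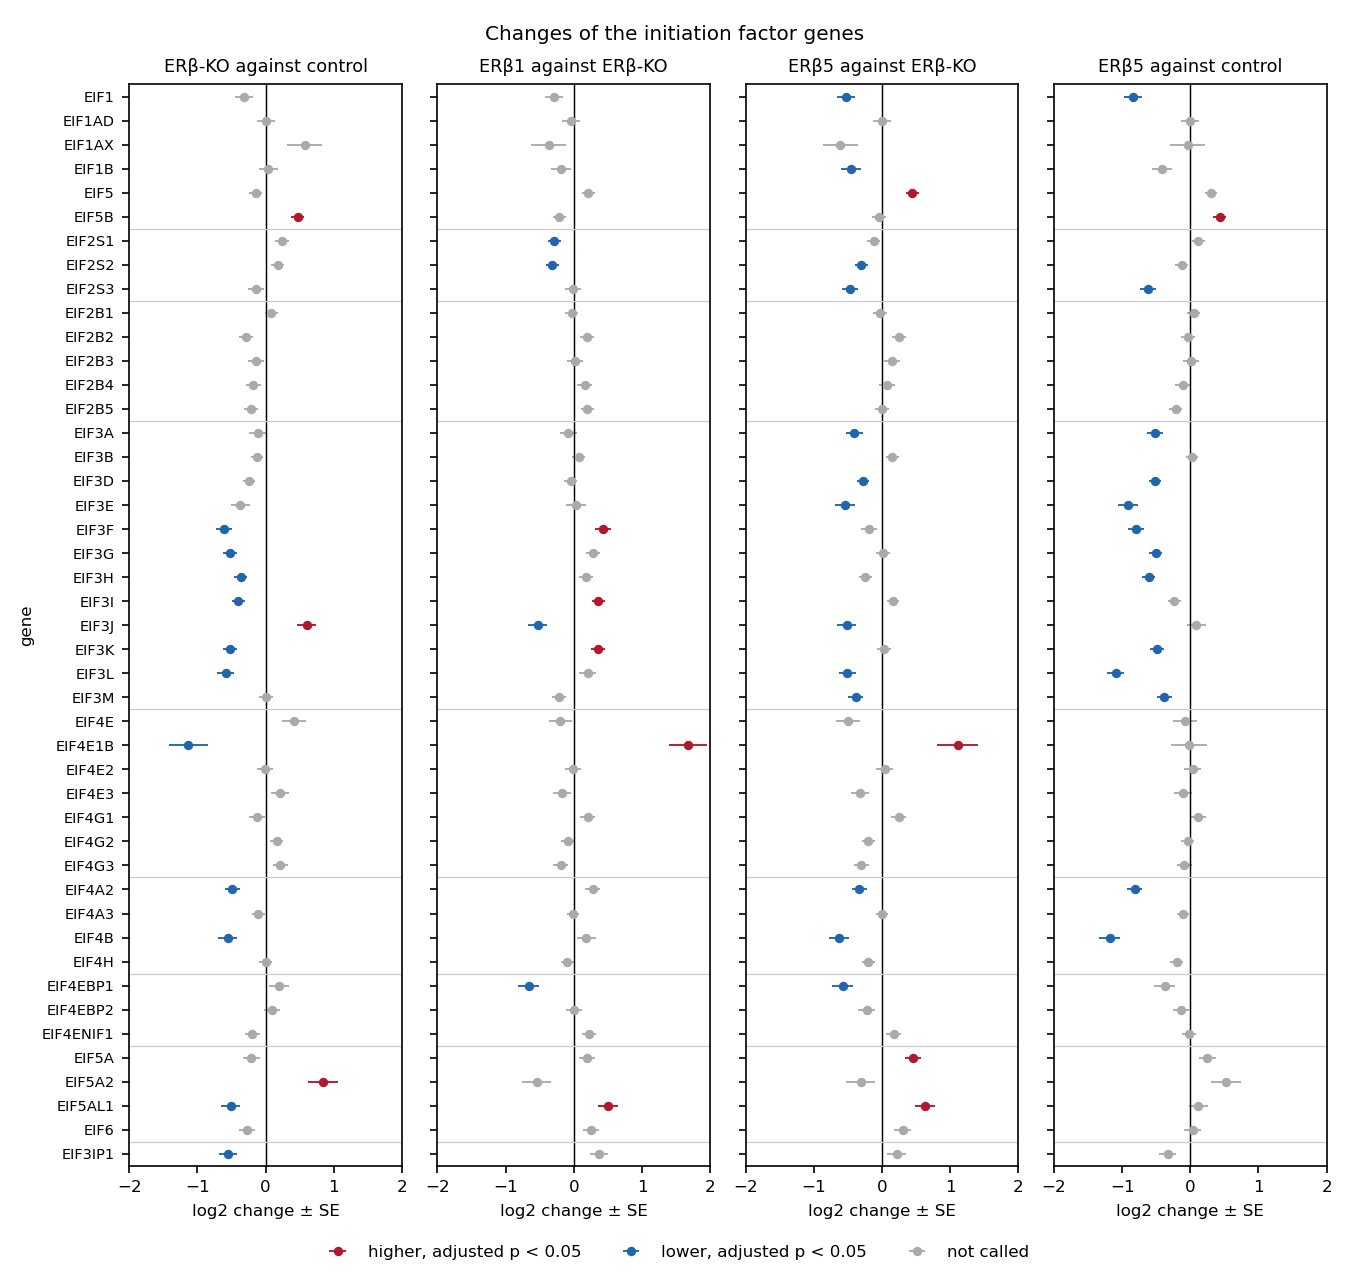
Log2 change with its standard error (horizontal bar) of each of the 45 initiation factor genes in 4 comparisons, genes running down the page by role; red points are called higher, blue points called lower (edgeR adjusted p under 0.05) and grey points not called. In ERβ5 against control 9 of the 12 eIF3 subunits, EIF4A2, EIF4B, EIF1 and EIF2S3 are blue and lie left of 0.

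The cap-binding group held the gene with the fewest reads. EIF4E1B, a relative of eIF4E best known from oocytes, had 13 to 81 reads a library. Its levels were 1.12 and 1.03 CPM in ERβ5, 1.5 and 1.67 CPM in ERβ1, 0.551 and 0.428 CPM in ERβ-KO, and 1.07 and 1.12 CPM in control. ERβ1 was highest and ERβ-KO lowest, with ERβ5 and control overlapping. EIF4E1B was higher in ERβ1 against ERβ-KO (1.68 ± 0.28, edgeR adjusted p = 0.00171), a call that held in every fit tried, and in ERβ5 against ERβ-KO (1.11 ± 0.30, edgeR adjusted p = 0.0192), and lower in ERβ-KO against control (-1.13 ± 0.29, edgeR adjusted p = 0.0231). DESeq2 called neither of the last 2. The cap-binding protein EIF4E itself, its relatives EIF4E2 and EIF4E3, and the scaffolds EIF4G1, EIF4G2 and EIF4G3 were called in no comparison by edgeR.

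EIF4EBP1, the 4E-BP that blocks eIF4E until mTOR phosphorylates it, had 93.9 and 137 CPM in ERβ5, 111 and 107 CPM in ERβ1, 159 and 186 CPM in ERβ-KO, and 152 and 148 CPM in control. It was lower than in ERβ-KO in ERβ5 (-0.58 ± 0.15, edgeR adjusted p = 0.0177) and in ERβ1 (-0.66 ± 0.15, edgeR adjusted p = 0.00959). The ERβ5 call was lost without ERβ5 library 1, which held the lowest value, the ERβ1 call without ERβ1 library 1, and both without ERβ-KO library 2, which held the highest. EIF4EBP2 and the eIF4E transporter EIF4ENIF1 were not called.

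EIF5A, the protein that carries the modified lysine hypusine, acts mainly in elongation despite its name. EIF5A had 242 and 312 CPM in ERβ5, 237 and 225 CPM in ERβ1, 193 and 211 CPM in ERβ-KO, and 222 and 245 CPM in control, and was higher in ERβ5 against ERβ-KO (0.45 ± 0.12, edgeR adjusted p = 0.0203). Both ERβ5 values lay above both ERβ-KO values, but the call was lost with the GC and length trend removed. EIF5AL1, a near copy of EIF5A, had 10.3 and 12.4 CPM in ERβ5, 10.5 and 10.3 CPM in ERβ1, 7.23 and 7.44 CPM in ERβ-KO, and 10.1 and 10.8 CPM in control. Only ERβ-KO stood apart, below the others: EIF5AL1 was higher in ERβ5 against ERβ-KO (0.63), higher in ERβ1 against ERβ-KO (0.50) and lower in ERβ-KO against control (-0.51). Since 59.1% of the windows of EIF5AL1 and 41.6% of those of EIF5A occur elsewhere in the genome, the split of reads between them is uncertain.

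EIF5A2, a paralog at low level, had 6 and 6.8 CPM in ERβ5, 3.94 and 6.75 CPM in ERβ1, 7.92 and 7.97 CPM in ERβ-KO, and 4.45 and 4.42 CPM in control. It was higher in ERβ-KO against control (0.84 ± 0.22, edgeR adjusted p = 0.0234), but not with the GC and length trend removed. EIF6, which keeps the large subunit from joining early, was not called. EIF3IP1, an annotated pseudogene on chromosome 7, was lower in ERβ-KO (8.17 and 7.81 CPM) than in control (11.7 CPM in both), by -0.55 ± 0.13 (edgeR adjusted p = 0.0177).

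Per kilobase of uniquely placed windows of the canonical transcript, the mean level over the 8 libraries ran from 0.549 for EIF4E1B to 377 for EIF4B, both in CPM per kilobase. EIF5A (333), EIF3E (328) and EIF3G (316) followed EIF4B, while EIF4E had 8.83 and EIF5A2 had 1.14 CPM per kilobase. The eIF2B subunits lay between 13.6 and 36.8 CPM per kilobase. EIF3F, at 8.91 CPM per kilobase, rests on a canonical transcript with 6.117 kilobases of unique windows, so its level depends on that choice of transcript. The order of EIF5A, EIF3E and EIF3G changed between libraries: EIF5A was above EIF3E in both ERβ5 libraries (341 and 440 against 260 and 191 CPM per kilobase) and below it in both control libraries (313 and 345 against 438 and 409). These orders hold for length counted in unique windows only. That count leaves out 61.1% of the windows of EIF4B, 41.6% of EIF5A, 16.8% of EIF3E and 0% of EIF3G. With another length the order of these genes could differ, which was not tested.

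**Figure D4:**
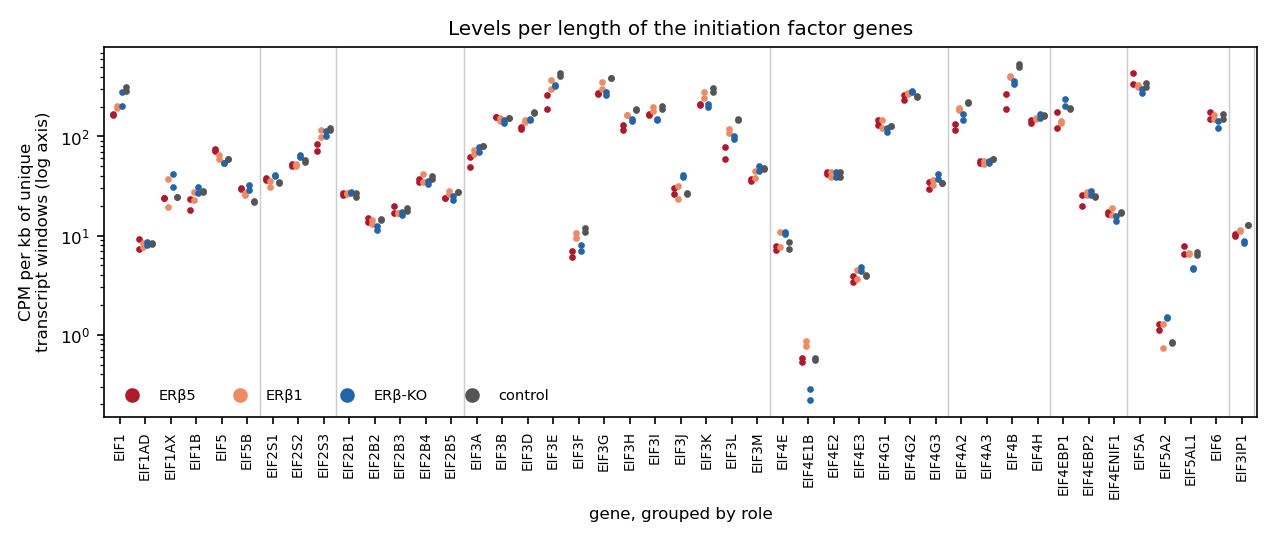
Level of each of the 45 initiation factor genes in CPM per kilobase of uniquely placed transcript windows (log axis), 1 point per library and 4 colours for the groups; genes are ordered by role. Levels are lowest for EIF4E1B (mean 0.549) and highest for EIF4B (mean 377), EIF5A, EIF3E and EIF3G.

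The 4 genes with such names outside the set had few or no reads. EIF4A1, the main eIF4A helicase, and EIF3CL had 0 reads in every library, EIF3C had 0 or 1, and EIF4EBP3 had 1 to 3. EIF3C and EIF3CL are near-identical, with 66.2 and 66.1% of windows found elsewhere, and EIF4A1 is overlapped on its own strand over 5892 bases by the readthrough gene SENP3-EIF4A1. Their values say nothing about these factors in the cells. Several of the 45 genes are overlapped by a gene on the opposite strand, such as EIF3J by SPG11 and EIF2S2 by RALY, and the strand setting of the counting is not given in the sources used here.

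The pyrimidine starts printed above were compared with the changes after the values had been seen, so the following is a description. In ERβ5 against control all 7 genes with such a start were lower, with log2 changes of -1.19 to -0.38 and a median of -0.62. Of the 30 genes with a window and another start, 1 was lower (EIF1) and 1 higher (EIF5B), with a median of -0.02. The 8 genes without a window cannot be placed, and 5 of them (EIF3A, EIF3E, EIF3G, EIF3H and EIF3L) were lower. The 7 were each called lower in all the fits with other processing, while 3 and 5 of them were called without control library 1 or 2, all 7 values remaining below 0.

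Counts in the other comparisons, which share libraries with the first, were smaller. In ERβ5 against ERβ1, 4 of the 7 were lower and none of the 30 was called, and in ERβ-KO against control 4 of the 7 were lower against 3 lower and 3 higher of the 30. In ERβ5 against ERβ-KO, 5 of the 7 were lower against 3 lower and 4 higher of the 30, but 2 of the 7 were lower with the GC and length trend removed, which left 6 of the 7 lower in ERβ-KO against control. In ERβ1 against ERβ-KO 2 of the 7 were higher against 3 higher and 2 lower of the 30, and in ERβ1 against control none of the 7 and 1 of the 30 was called. Over all genes tested, 26.5% of 573 with a pyrimidine start and 5.27% of 9995 with another start were lower in ERβ5 against control. Ribosomal protein genes were part of this, with 31 of 42 lower (73.8%), but of the 524 genes with such a start that were neither ribosomal nor among the 45, 21.8% were lower. The fall was not particular to ERβ5. In ERβ-KO against control 23.6% of the 573, 7.69% of the 9995 and 18.7% of the 524 were lower, with 33 of the 42 ribosomal genes (78.6%). In ERβ5 against ERβ-KO these shares were 20.6%, 13.8% and 21.6%, with 0 of the 42. For ERβ5 against ERβ1, 6.46% of the 573 and 0.84% of the 9995 were lower, and 2.27% and 3.52% were higher. For ERβ1 against ERβ-KO, 15.2% and 12.2% were higher, and 10.6% and 13.3% lower. For ERβ1 against control, 5.06% and 2.67% were lower, and 0.698% and 1.3% higher.

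**Figure D5:**
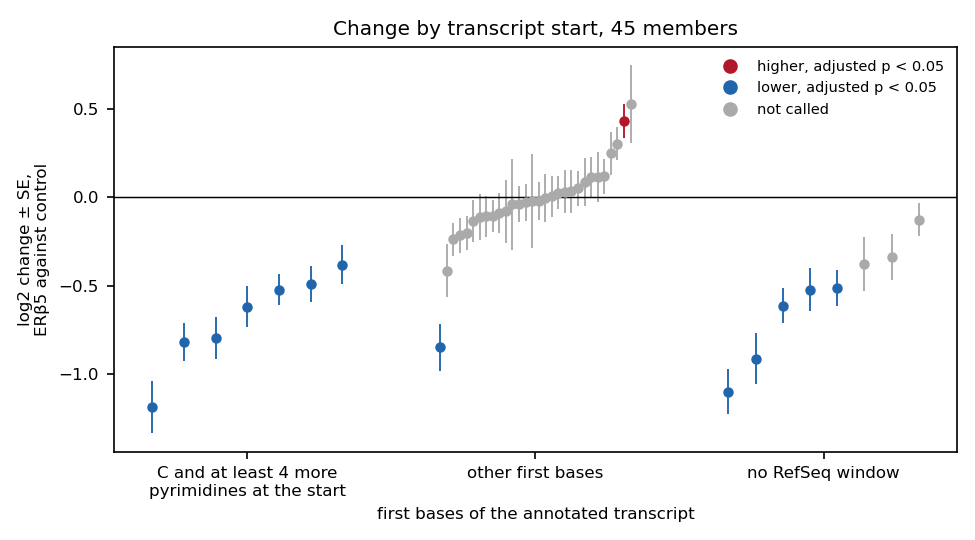
Log2 change in ERβ5 against control with its standard error for the 45 initiation factor genes, by the first bases of the annotated transcript: 7 with a pyrimidine start, 30 with other first bases and 8 without a RefSeq window; blue is called lower and red called higher. All 7 points on the left lie below 0 and are blue, and most of the 30 in the middle lie near 0 and are grey.

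Other genes of translation were taken from lists and counted in the same fits. Of 13 genes listed as elongation and termination factors or enzymes that modify them, 7 were lower and none higher in ERβ5 against control. That is 53.8% against the 13.2% of all genes. Their median log2 change was -0.53, and in ERβ-KO against control 7 of the 13 were also lower (53.8% against 17.5% of all genes). The list counts DHPS, an enzyme of hypusine formation, among the 7 in both comparisons. EEF2, the translocase, averaged 4330 ± 507 CPM in ERβ5 and 8938 ± 514 CPM in control (SD, n = 2 each, log2 change -1.05, edgeR adjusted p = 0.000322). EEF1A1, which delivers tRNAs to the ribosome, averaged 664.3 ± 161 CPM in ERβ5 and 1377 ± 74.4 CPM in control (SD, n = 2 each, log2 change -1.05, edgeR adjusted p = 0.000773). EEF1B2, its exchange factor, was lower by -1.01 (edgeR adjusted p = 0.000264). In ERβ1 against ERβ-KO 3 of the 13 were higher and 1 lower (30.8% called against 24.9% of all genes, a share near the background). In ERβ5 against ERβ1, 5 of the 13 were lower (38.5% called against 4.66%). The 5 became 0 and 1 without ERβ1 library 1 or 2, and 1 without ERβ5 library 2. Without control library 1 or 2, the counts lower in ERβ-KO against control were 3 and 2 of 13, without ERβ-KO library 1 they were 3, and with the GC and length trend removed 4.

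Initiation proteins with other names formed a separate list. Of 18, 3 were lower in ERβ5 against control (16.7% called against 13.2% of all genes, a share near the background), namely EIF2A (-0.93), an alternative carrier of initiator tRNA, the poly(A)-binding protein PABPC1 (-0.725) and EIF2D (-0.64). In ERβ-KO against control 2 of the 18 were higher and 2 lower (22.2% against 17.5% of all genes), and 5 were lower in ERβ5 against ERβ-KO (27.8% against 28.2%). Without either control library none of the 4 was called, and with the GC and length trend removed ERβ5 against control had 3 higher and 6 lower. Of the 6 genes for kinases and phosphatase subunits of eIF2 alpha, EIF2AK2 (PKR, activated by double-stranded RNA and induced by interferon) had the largest change. EIF2AK2 had 212 and 231 CPM in ERβ5, 70.9 and 81.6 CPM in ERβ1, 237 and 178 CPM in ERβ-KO, and 67.1 and 59.9 CPM in control. ERβ5 and ERβ-KO were thus high and ERβ1 and control low, with log2 changes of 1.80 in ERβ5 against control (edgeR adjusted p = 2.49e-05), 1.54 in ERβ5 against ERβ1 (edgeR adjusted p = 0.000172), 1.71 in ERβ-KO against control (edgeR adjusted p = 6.89e-05) and -1.44 in ERβ1 against ERβ-KO (edgeR adjusted p = 4.48e-05).

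Of 13 genes of mTOR and MNK signalling, 4 were higher and none lower in ERβ-KO against control (30.8% called against 17.5% of all genes, of which 8.98% higher), with log2 changes of 0.41 to 0.47, among them RHEB, DEPTOR and RICTOR. None of the 13 was called there without either control library or without ERβ-KO library 1. In ERβ5 against control edgeR and DESeq2 each called 0 of the 13, with 2 at an unadjusted p under 0.05 in edgeR and 2 called lower with the GC and length trend removed. The 3 genes of mitochondrial initiation gave 0 calls in all 6 comparisons by edgeR and by DESeq2, with 1 at an unadjusted p under 0.05, in ERβ5 against ERβ-KO, and log2 changes between -0.25 and 0.05.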

How the data were processed

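Total RNA of 8 libraries was prepared with the Illumina TruSeq total RNA kit and read as single ends, per the labels' protocols. The deposited values are raw counts of reads per gene, as whole numbers with no normalization. Per the submitters' processing notes, reads were converted with bcl2fastq, aligned to hg19 with TopHat2 2.0.8b and counted with HTSeq. For HTSeq, the strand setting and the annotation release were not given in the sources used here. The closing entries of each file name no gene and were left out of totals and tests: of all entries, 34.7 to 39.9% had no single place, 7.01 to 7.79% met no gene, 0.54 to 0.561% were ambiguous and the remaining 52.5 to 57.1% lay in genes.

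All 8 libraries entered 1 fit per gene with edgeR 4.0.16 in R 4.3.3 (quasi-likelihood test, robust, TMM factors, filterByExpr with minimum count 10 and minimum total 15), which left 13915 genes. A standard error is the size of the log2 change over the root of its F statistic, and levels in CPM are scaled with the TMM factors. The common biological coefficient of variation was 0.102. The members and lists were chosen with earlier results of these data known. Genes named in full were called in at least 3 of the 6 comparisons, or were among the 4 largest called rises or falls of a comparison without overlap between libraries, and the rest are given by role. At most 3 genes were named per list and comparison by the size of the called change. Alternatives were RLE size factors, no filter, a filter of 1 CPM in 2 libraries, DESeq2 1.42.0, only the groups compared, a replicate block, and removal of each library's trend with GC content and length. For the last, 95.2% of genes tested matched an annotated transcript. Each library was also left out in turn. The script was tested on simulated data. Transcript starts come from RefSeq windows of GRCh38.p14, and window uniqueness was counted on GRCh37.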

Additional observations from a re-analysis of the deposited data

Results flagged for a closer look

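The change from ERβ-KO differed between the 2 isoforms for 7 genes, which is the direct comparison of ERβ5 with ERβ1, since the ERβ-KO libraries cancel. By edgeR's quasi-likelihood test, adjusted over all genes tested, the log2 changes in ERβ5 against ERβ1 were -0.467 for EIF2S3, -0.572 for EIF3E, -0.613 for EIF3F, -0.423 for EIF3H, -0.719 for EIF3L, -0.609 for EIF4A2 and -0.814 for EIF4B. The ERβ5 libraries lay below the ERβ1 libraries in each of the 7, which is no further evidence, since the 7 were picked by this call. With each library left out in turn, 0 to 10 of the 45 genes were called in this comparison, the lowest count being that without ERβ1 library 1.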

How the results depend on the processing

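Counts of the 45 genes called kept within 1.5 times under RLE size factors and a filter of 1 CPM. ERβ5 against ERβ-KO (17) gave 11 with the GC and length trend removed together with a replicate block. ERβ5 against ERβ1 (7) gave 4 with only the groups compared and 11 with GC, length and replicate block. ERβ1 against control (1) gave 5 without a filter, 2 with DESeq2, 4 with only the groups compared, 3 with GC and length and 5 with replicate block added. The replicate block alone gave 14 in ERβ-KO against control, 9 in ERβ1 against ERβ-KO, 19 in ERβ5 against ERβ-KO, 5 in ERβ5 against ERβ1, 1 in ERβ1 against control and 14 in ERβ5 against control. Replicate numbers were shared only as numbers: the correlation between groups of the difference between libraries 1 and 2 ran from -0.12 to 0.139, so the block does not stand for a pairing.

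With 1 library left out, counts ran from 0 to 15 in ERβ-KO against control, 1 to 10 in ERβ1 against ERβ-KO, 2 to 19 in ERβ5 against ERβ-KO, 0 to 10 in ERβ5 against ERβ1, 0 to 4 in ERβ1 against control and 7 to 15 in ERβ5 against control. All 14 calls of ERβ5 against control held under the processing alternatives, and 7 also without each library. In ERβ-KO against control 10 of 14 held under the processing alternatives and 0 of them without each library.

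Signs changed with GC and length removed, without and with the block: EIF3M in ERβ-KO against control was -0.322 and -0.324, EIF2S1 in ERβ1 against ERβ-KO 0.000 and 0.001, EIF2S1 in ERβ5 against ERβ-KO 0.247 in both, and EIF3G in ERβ5 against ERβ-KO -0.318 and -0.321. EIF5B in ERβ5 against ERβ-KO was 0.314 without the block. Before this removal the values were, in the same order, 0.006, -0.289, -0.124, 0.01 and -0.044. Only EIF2S1 in ERβ1 against ERβ-KO had been called before and lost its call, while the others became calls. The cause of these changes was not tested. Genes of few reads, such as EIF4E1B, have the least precise values.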
